A study of Rattus norvegicus with 18 samples.

Results

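The G1 and S phase genes examined here are 40 named genes that carry a cell from the G1 decision point through DNA replication. They were taken from a list of names drawn up with earlier results of these data known, and 39 of them had a row in the deposited table of 28909 genes; E2F1 is not analysed here. The 39 comprised 9 genes of cyclins, cyclin-dependent kinases (CDKs) and their activating phosphatase, 4 genes of the E2F and RB families, and 26 genes of DNA replication and nucleotide supply. Each of the 39 reached 0.162 CPM (reads scaled to a common library total; about 10 reads here) in at least 3 libraries and was tested.

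The cells were ventricular cardiomyocytes of wild-type SD rats aged 1 day, enriched by discarding the cells that attached fastest, and kept in low-serum medium. The controls received the solvent DMSO. The treated cells received blebbistatin, an inhibitor of the myosin II motor, for 0.5 h at 25 µM by the treatment protocol, although the series text also gives 0.25 in place of 25. Each group had 3 RNA libraries, numbered 1 to 3, and nothing in the labels ties them to separate cell preparations, so every p-value measures only the spread between these libraries. The series title asks whether the cytoskeleton acts on cardiomyocyte cell cycle activity; the chromatin samples that accompany the RNA are not analysed here.

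In G1, D-type cyclins pair with CDK4 and CDK6 and phosphorylate the RB proteins, which otherwise hold E2F transcription factors in check. Freed E2F activates cyclin E, CDC25A and the genes that license and fire replication origins, make deoxynucleotides and copy DNA. Rodent ventricular cardiomyocytes leave this cycle soon after birth, while fibroblasts and endothelial cells of the same cultures can continue to divide. In bulk RNA, fewer cells in cycle and less RNA per cell cannot be told apart, and the cell type that supplied each transcript is not known.

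E2F-type sequence was present in the promoters of most, but not all, members that could be examined. Members were chosen by name and not by sequence. Many belong to the groups of genes described above as activated by E2F, so the share of matches is not independent of that choice. RefSeq promoter windows (build GRCr8, 250 bases before to 50 after the annotated start) were found by symbol for 30 of the 40 listed genes, and not for CCND1, CCND2, CCNE2, CDK6, E2F1, E2F2, MCM4, CDC6, RRM2 and ORC1. Any of the 4 motifs TTTCGCGC, TTTGGCGC, TTCCCGCC and TTTCCCGC, on either strand, occurred in 20 of these 30 windows (66.7%), against 6.2% of the 10449 windows of tested genes and 4.3% of 19005 windows of protein-coding genes. TTCCCGCC and TTTCCCGC overlap each other by all but their outer base, so a single place can match both. By role, a match was present in 16 of 22 replication genes, 3 of 3 E2F and RB genes (E2F3, RB1 and RBL1) and 1 of 5 genes of cyclins and CDKs (CDC25A). The motif CCAAT was present in 19 of the 30 (63.3%) and in 37.3% of the windows of tested genes. The median GC content was 61.0% in the windows of the members and of the tested genes and 55.3% in those of protein-coding genes. A match is a stretch of letters and not evidence of binding.

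The stretches below show the upstream match nearest the start in 10 members, chosen to cover each of the 3 roles. Capitals mark the match and lower case its flanks. Positions count from the annotated start, with -1 the base before it. In MCM2, MCM6 and GINS1, matches on both strands overlap and form a 12-base place. No printed stretch goes past the start.
CDC25A, chr8:118742798-118742837, plus strand, match from -236 to -229: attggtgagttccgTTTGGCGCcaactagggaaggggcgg
E2F3, chr17:34810319-34810363, plus strand, match from -79 to -71: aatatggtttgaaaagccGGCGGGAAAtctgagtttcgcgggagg
RBL1, chr3:166289377-166289412, minus strand, match from -18 to -11: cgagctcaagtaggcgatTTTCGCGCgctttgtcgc
MCM2, chr4:122918095-122918126, minus strand, match from -14 to -3: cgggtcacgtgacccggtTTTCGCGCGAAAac
MCM6, chr13:42404462-42404509, minus strand, match from -139 to -128: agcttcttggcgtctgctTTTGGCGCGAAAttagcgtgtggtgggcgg
MCM7, chr12:22163205-22163248, minus strand, match from -52 to -45: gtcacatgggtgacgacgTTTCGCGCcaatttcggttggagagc
GINS1, chr3:160184877-160184919, plus strand, match from -25 to -14: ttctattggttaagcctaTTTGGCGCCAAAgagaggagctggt
POLA1, chrX:62342502-62342545, minus strand, match from -172 to -165: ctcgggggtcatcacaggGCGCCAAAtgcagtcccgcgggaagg
TYMS, chr9:120776095-120776138, minus strand, match from -37 to -30: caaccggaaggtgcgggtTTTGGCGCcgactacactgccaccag
UNG, chr12:48154052-48154095, minus strand, match from -32 to -25: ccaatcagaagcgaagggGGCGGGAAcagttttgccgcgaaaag

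**Figure D1:**
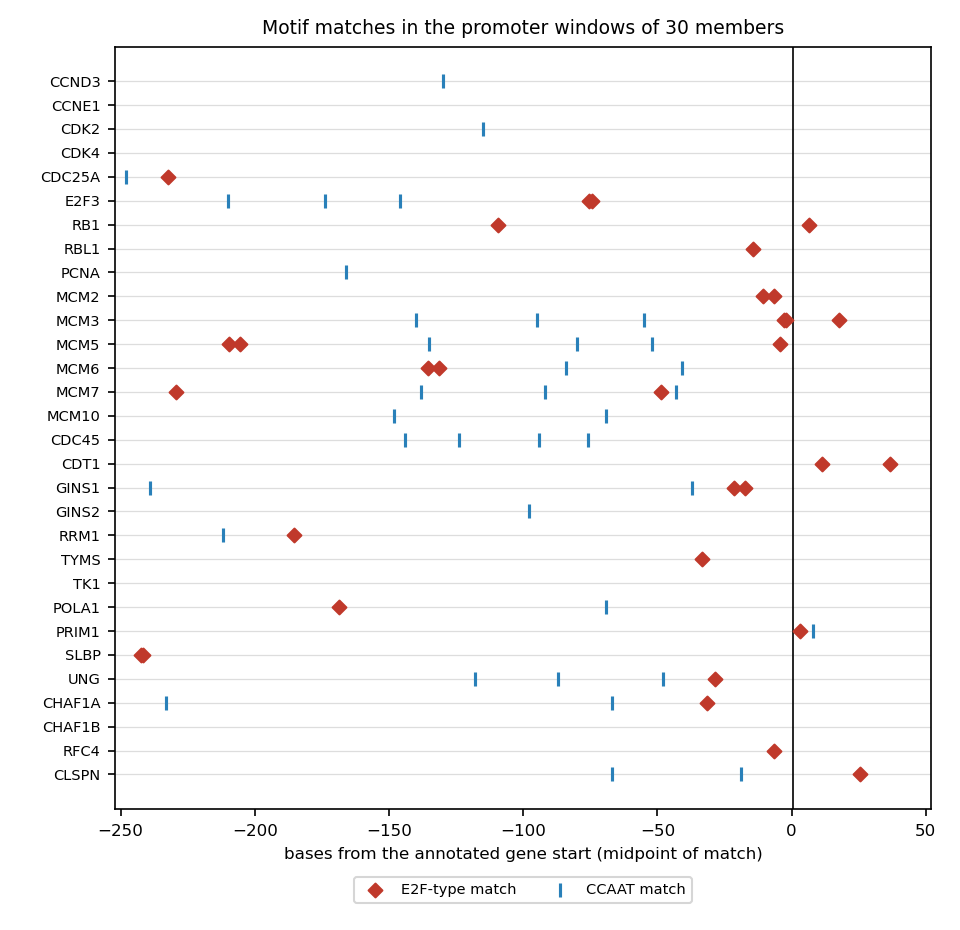
Place of E2F-type matches (red diamonds) and CCAAT matches (blue bars) in the promoter windows of the 30 members with a RefSeq entry; the horizontal axis gives bases from the annotated start (vertical line). Matches to an E2F-type motif are seen in 20 of the 30 rows, and CCND3, CDK2, PCNA, MCM10, CDC45 and GINS2 hold CCAAT without one.

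Depth was even, at 59640000 to 63250000 reads per library as read from the step between CPM values. DMSO replicate 1 stood apart: on the leading component (42% of the variance) it lay at -77.4 and the other 5 between -3.0 and 34.6. The summed level of 29 ribosomal protein genes was 10380 CPM in it and 14780 to 19530 CPM elsewhere. Macrophage and leukocyte markers (12 of 12 in the table) summed to 106.7 CPM in it against 141.8 to 151 CPM. Red blood cell genes (6 of 9, with HBE1 listed at 0) summed to 72.56 CPM in it against 26.42 to 31.59 CPM. Nearly all of that sum was HBB, at 70.74 CPM in DMSO replicate 1 and 25.9 to 30.3 CPM elsewhere. The other red blood cell genes were at 1.025 CPM or less in every library. All 14 cardiomyocyte markers found, of 15 listed, were above 0 in every library, so transcripts defining the labelled cell type were present. Which cells supplied these markers is not known. Their sum was 34170 CPM in DMSO replicate 1 and 28700 to 30030 CPM elsewhere, while the median marker was 0.46 lower there on the log2 scale than in the mean of the other 5. MYH7, the largest part of the sum, was at 19640 CPM there and 11150 to 13110 CPM elsewhere. ACTC1, the next largest, was at 5200 CPM there and 7699 to 8338 CPM elsewhere. Fibroblast (14 of 14, 35900 to 41450 CPM), endothelial (9 of 10) and smooth muscle and pericyte markers (7 of 7) were measured in every library as well. The endothelial sum was highest in DMSO replicate 1, at 234.3 CPM against 165.9 to 184.3 CPM elsewhere. Its median marker was 0.17 higher there on the log2 scale, but the list was mixed. FLT1 was at 120 CPM there and 74.48 to 83.51 CPM elsewhere, and CDH5 at 13.8 CPM there and 18.01 to 22.41 CPM elsewhere. The smooth muscle and pericyte sum was lowest in DMSO replicate 1, at 4410 CPM against 5341 to 6038 CPM. The median marker of that list was 0.14 higher there on the log2 scale, so its genes did not move together. ACTA2 was at 1948 CPM there and 2753 to 3136 CPM elsewhere, and PDGFRB at 763.1 CPM there and 347.9 to 430.8 CPM elsewhere. No marker of any list was called between the treatments. What part these shifts have in the values of single members was not tested.

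None of the 39 members passed the test after blebbistatin. The limma fit over all 15204 tested genes called 0 members at an adjusted p under 0.05, where 0.0197% of all tested genes were called. At an unadjusted p under 0.05 there were also 0 members, against 1.52% of all genes. The median log2 fold change (blebbistatin minus DMSO) was 0.008 over the members and 0.004 over all tested genes. In size, irrespective of sign, the median was 0.11 for the members and 0.149 for all genes, and 21 members were positive and 18 negative. The extremes were E2F3 at -0.41 and ORC1 at 0.38.

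Across members, the 95% intervals show how large a difference these libraries leave possible. For 38 of 39 members the interval lay between a 2-fold fall and a 2-fold rise, CDK6 being the exception, and for 29 it lay within 1.5-fold either way. For MCM2, MCM3, MCM4, MCM7 and TYMS the interval lay between 0.813-fold and 1.231-fold, and for RRM2, whose interval was the narrowest on the log2 scale, it ran from 0.756-fold to 1.074-fold. Without DMSO replicate 1, all 39 intervals lay within 2-fold and 34 within 1.5-fold. That fit also called 0 members (0.0395% of all genes) and had 0 at an unadjusted p under 0.05 (1.58% of all genes). Its median over the members was 0.036.

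**Figure D2:**
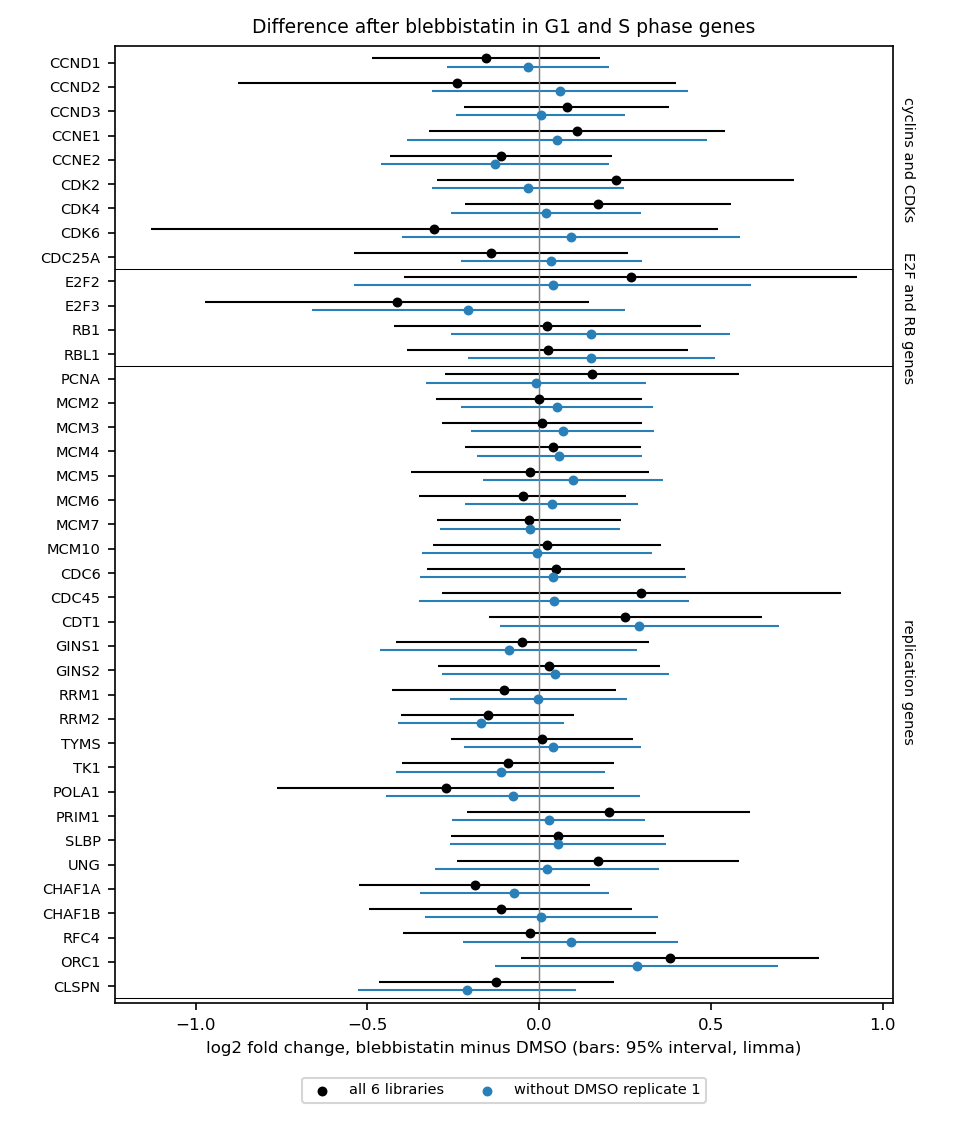
Log2 fold change of each member, blebbistatin minus DMSO, with its 95% interval from limma (horizontal bars), for all 6 libraries (black) and without DMSO replicate 1 (blue). Every interval crosses 0 in both fits, and the points of the cyclins and CDKs lie closer to 0 in the fit without that library for 8 of 9 genes.

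The D-type cyclins and their kinases, the entry point of the pathway, were all measured well above the floor. CCND1, the D-type cyclin most tied to growth factor signals, was at 212.3, 183.4 and 177.9 CPM in DMSO replicates 1 to 3 and at 178, 169.7 and 180.7 CPM in the treated libraries. The 3 treated values lay within the lower part of the control range or just below it, and the log2 fold change was -0.15 ± 0.14 (SE). CCND2 was at 256.6, 157.9 and 143.1 CPM with DMSO and at 128.4, 175.3 and 169.7 CPM with blebbistatin (-0.24 ± 0.27). Its highest value belonged to DMSO replicate 1, and the remaining 5 libraries overlapped. CCND3 went the other way in that library, with 159.5 CPM against 203.6 and 205 CPM in the other controls, and stood at 206.9, 190.3 and 216.5 CPM after treatment (0.080 ± 0.13).

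CDK4 and CDK6, the partners of these cyclins, differed in opposite directions without passing the test. CDK4 was at 84.87, 116.8 and 139.3 CPM with DMSO and 137.4, 119.1 and 130.9 CPM with blebbistatin (log2 fold change 0.17 ± 0.17). CDK6 was at 38.24, 20.79 and 16.05 CPM with DMSO and 15.43, 23.37 and 20.32 CPM with blebbistatin (-0.31 ± 0.35). In both genes the group difference hangs on DMSO replicate 1, which is the lowest library for CDK4 and the highest for CDK6. Without it the values were 0.021 ± 0.12 for CDK4 and 0.093 ± 0.21 for CDK6, the latter with its sign changed. For CDK6, a 95% interval from 0.457 to 1.435-fold was the widest on the lower side of any member.

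In the cyclin E and CDK2 step, which drives cells into S phase, DMSO replicate 1 stood apart for CDK2 and CDC25A and not for the cyclins. CDK2 was at 20.43 CPM in DMSO replicate 1 and at 38.56 and 37.77 CPM in the other controls, against 38.06, 33.74 and 39.99 CPM in the treated libraries. Its log2 fold change of 0.22 ± 0.22 became -0.033 ± 0.12 without DMSO replicate 1. CCNE1 was at 9.787, 10.04 and 14.59 CPM with DMSO and 11.77, 12.52 and 13.31 CPM with blebbistatin (0.11 ± 0.18), with all treated values inside the control range. CCNE2 was at 18.4, 23.1 and 18.98 CPM and at 19.02, 18.31 and 19.95 CPM (-0.11 ± 0.14). CDC25A, the phosphatase that activates CDK2, was at 52.41, 39.2 and 40.61 CPM with DMSO and 39.05, 41.41 and 41.9 CPM with blebbistatin (-0.14 ± 0.17), again with DMSO replicate 1 apart and the other 5 libraries together. Over the 9 genes of this role the median was -0.11 with all libraries and 0.021 without DMSO replicate 1, and 4 of them changed sign.

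The E2F and RB genes included the member with the largest negative difference. E2F3, an activating E2F, was at 18.37, 14.65 and 11.6 CPM with DMSO and 9.556, 13.09 and 11.38 CPM with blebbistatin. The groups overlapped, and the log2 fold change was -0.41 ± 0.24 (limma unadjusted p = 0.125, adjusted p = 0.991). Its size was -0.21 ± 0.20 without DMSO replicate 1, with the same sign. E2F2, another activating E2F, had the fewest reads of any member, at 1.504, 2.498 and 2.932 CPM with DMSO and 3.234, 2.846 and 2.319 CPM with blebbistatin (0.27 ± 0.28, and 0.040 ± 0.25 without DMSO replicate 1). Even these values exceed the 3-read floor of 0.0474 to 0.0503 CPM many times over.

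RB1, the retinoblastoma protein gene, and RBL1, which encodes its relative p107, had overlapping groups and differences near 0. RB1 was at 23.71, 21.49 and 18.55 CPM with DMSO and 19.71, 26.61 and 20.53 CPM with blebbistatin (0.024 ± 0.19, with a 95% interval from 0.746-fold to 1.386-fold). RBL1 was at 23.08, 19.15 and 19.63 CPM with DMSO and 20.89, 24.84 and 19.1 CPM with blebbistatin (0.025 ± 0.18, from 0.766-fold to 1.351-fold). In each gene blebbistatin replicate 2 was the highest library of the 6. The median over the 4 measured genes of this role was 0.024.

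**Figure D3:**
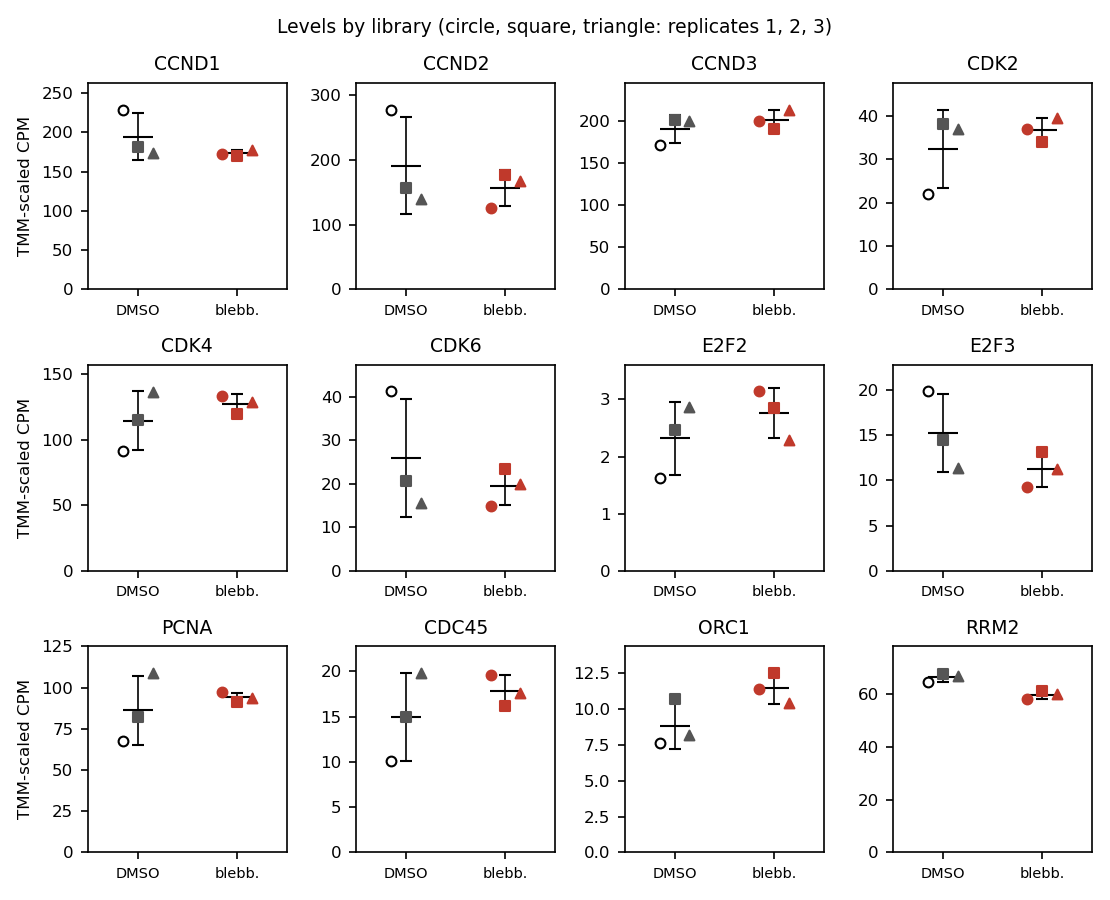
TMM-scaled CPM of 12 members in each library, with the group mean (long bar) and SD (error bars, n = 3 per group); circles, squares and triangles are replicates 1, 2 and 3, and the open circle is DMSO replicate 1. The open circle is the highest point for CCND1, CCND2, CDK6 and E2F3 and the lowest for CCND3, CDK2, CDK4, E2F2, PCNA, CDC45 and ORC1.

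Among the replication genes, the 6 subunits of the replicative helicase, MCM2 to MCM7, each differed by less than 0.1 on the log2 scale. MCM4 was at 93.07, 96.76 and 99.52 CPM with DMSO and 99.88, 103.3 and 102.4 CPM with blebbistatin. As deposited, its treated values all lay above its controls, but after scaling the groups overlapped, and the log2 fold change was 0.040 ± 0.11. MCM2 was at 89.49, 82.15 and 94.58 CPM with DMSO and 99.3, 82.94 and 91.66 CPM with blebbistatin, a log2 fold change of 0.001 ± 0.13. MCM3 (0.008 ± 0.13), MCM5 (-0.026 ± 0.15), MCM6 (-0.048 ± 0.13) and MCM7 (-0.029 ± 0.12) were as close to 0. Across the 6 subunits and 6 libraries the levels ran from 67.1 to 113 CPM. DMSO replicate 1 was the highest library for MCM2, MCM5 and MCM6 after scaling and the lowest for none of the 6.

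ORC1, CDC45 and CDT1, genes of origin licensing and firing, had the largest positive differences of the replication genes, and none passed the test. ORC1, the origin recognition subunit whose level varies through the cell cycle, was at 7.059, 10.78 and 8.358 CPM with DMSO and 11.72, 12.46 and 10.52 CPM with blebbistatin. Only DMSO replicate 2 overlapped the treated libraries, and the log2 fold change was 0.38 ± 0.19 (limma unadjusted p = 0.0762, adjusted p = 0.991), the lowest p of any member. It was 0.28 ± 0.18 without DMSO replicate 1. CDT1, which loads the MCM helicase, was at 20.83, 22.08 and 19.96 CPM with DMSO and 20.97, 27.19 and 29.5 CPM with blebbistatin (0.25 ± 0.17). Treated replicates 2 and 3 were the high libraries, and replicate 1 lay among the controls.

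CDC45, a helicase cofactor, was at 9.373, 15.09 and 20.25 CPM with DMSO and 20.21, 16.09 and 17.82 CPM with blebbistatin (0.30 ± 0.25). Its difference fell to 0.044 ± 0.17 without DMSO replicate 1. Its partners in the helicase, GINS1 (-0.049 ± 0.16) and GINS2 (0.029 ± 0.14), the licensing factor gene CDC6 (0.050 ± 0.16) and the firing factor gene MCM10 (0.023 ± 0.14) had overlapping groups and differences within their SE.

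RRM2, the regulated subunit of ribonucleotide reductase, was the only member whose groups did not overlap after scaling. Its scaled values were 64.51, 67.69 and 66.77 CPM with DMSO and 58.06, 61.1 and 60.16 CPM with blebbistatin. That corresponds to 66.3 ± 1.64 and 59.8 ± 1.55 (SD, n = 3 each), a log2 fold change of -0.15 ± 0.11 with a limma adjusted p of 0.991. As deposited, DMSO replicate 1 (59.86 CPM) lay within the treated range of 59.79 to 61.01 CPM. So 1 member lay wholly lower after treatment, where 2.89% of all tested genes did, and 0 lay wholly higher, against 3.24%.

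The other nucleotide genes had overlapping groups. RRM1, the large subunit, was at 203.9, 184.7 and 177.9 CPM with DMSO and 169.7, 189.7 and 182.4 CPM with blebbistatin (-0.10 ± 0.14). TYMS, thymidylate synthase, stayed between 36.85 and 40.09 CPM in the 6 libraries (0.009 ± 0.11). TK1, thymidine kinase, had a log2 fold change of -0.090 ± 0.13 with overlapping groups.

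PCNA, the sliding clamp of the replication fork, was at 62.51, 83.23 and 111.3 CPM with DMSO and 100.1, 91.11 and 94.87 CPM with blebbistatin. The controls spread around the treated values on both sides, and the log2 fold change was 0.15 ± 0.18. The 2 members that belong to the polymerase alpha and primase complex differed in opposite directions. POLA1, the catalytic subunit, was at 61.3, 46.59 and 42.91 CPM with DMSO and 35.25, 47.59 and 44.95 CPM with blebbistatin (-0.27 ± 0.21). PRIM1, the primase subunit, was at 30.12, 47.83 and 47.28 CPM with DMSO and 49.49, 51.78 and 43.96 CPM with blebbistatin (0.20 ± 0.18). Without DMSO replicate 1 these values were -0.076 ± 0.16 and 0.028 ± 0.12. POLA2 and PRIM2 of the same complex are not members and were named after their values were seen. With all libraries they were positive like PRIM1, at 0.165 ± 0.14 and 0.084 ± 0.143. Without DMSO replicate 1 they were at 0.099 and -0.008.

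For the remaining replication genes the groups overlapped. UNG, the uracil-DNA glycosylase gene, was at 0.17 ± 0.18 on the log2 fold scale and SLBP, whose product binds histone mRNA, at 0.055 ± 0.13. The chromatin assembly genes CHAF1A and CHAF1B were at -0.19 ± 0.14 and -0.11 ± 0.16. The clamp loader gene RFC4 was at -0.027 ± 0.16 and CLSPN, a fork checkpoint gene, at -0.13 ± 0.15. Over all 26 replication genes the median was 0.004, with 14 positive and 12 negative.

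DMSO replicate 1 was the highest or lowest library for more members than any other library, each of which was so for 9 to 13 members. DMSO replicate 1 was the highest of 6 for 14 members and the lowest for 10. Such an extreme place was thus held in 24 of 39 members (61.5%), and in 69% of all tested genes. By role it was extreme for 7 of 9 cyclins and CDKs, 2 of 4 E2F and RB genes and 15 of 26 replication genes. A difference between the treatments of at least 0.1 on the log2 scale, in either direction, was seen in 22 members with all libraries. Without DMSO replicate 1 it was seen in 9. The median size of the difference between the treatments also fell over all tested genes, from 0.149 to 0.099, beside 0.111 to 0.053 over the members. The log2 level in DMSO replicate 1 exceeded the mean of the other 5 libraries by over 0.5 for CDK6 (1.14), CCND2 (0.87), E2F3 (0.75), POLA1 (0.63) and CDC25A (0.503), and was over 0.5 below it for CDC45 (-0.79), CDK2 (-0.75), E2F2 (-0.71) and PRIM1 (-0.54). Some members of related roles thus lay on opposite sides in that library, CDK4 (-0.47) from CDK6 and POLA1 from PRIM1. POLA2 (-0.255) and PRIM2 (-0.272), of the same complex, lay on the side of PRIM1. The median size of this departure was 0.29 over the members and 0.41 over all tested genes. The range of the other 5 libraries had a median of 0.292 over the members and 0.462 over all tested genes. The SD of the log2 level had a median of 0.21 within the DMSO group and 0.11 within the blebbistatin group for the members, and of 0.30 and 0.19 for all genes. Whether the different levels of HBB and the different summed levels of ribosomal protein, leukocyte, cardiomyocyte, endothelial and smooth muscle transcripts in that library have a part in these values was not tested.

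**Figure D4:**
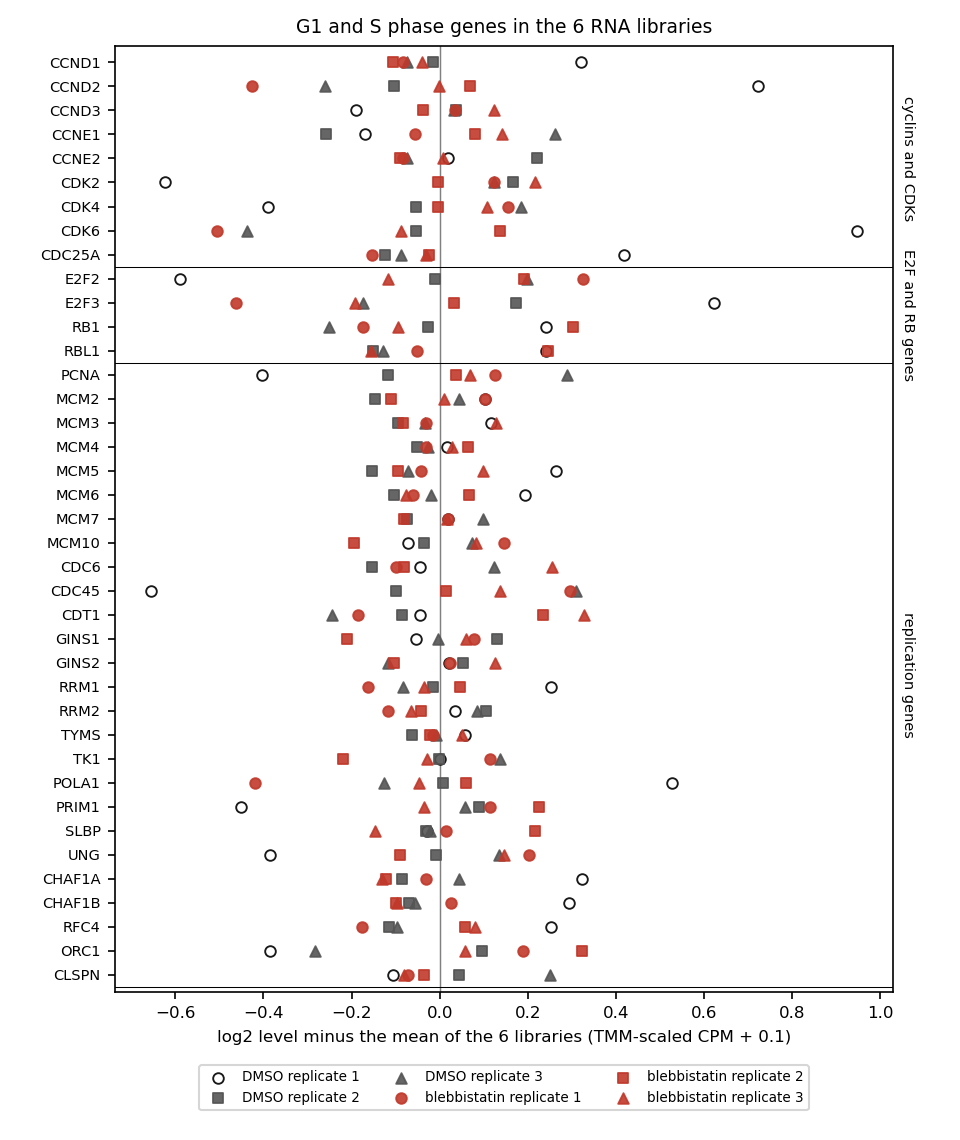
Log2 level of each member in each library minus its mean over the 6 libraries (horizontal axis, TMM-scaled CPM with 0.1 added), by role; grey symbols are DMSO, red symbols blebbistatin, and the open circle is DMSO replicate 1. Red and grey filled symbols intermingle, while the open circle lies at an outer edge for 24 of 39 members.

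Other genes of the pathway, in lists that hold no member, were not called either. Of 22 further E2F, RB and DREAM genes (DREAM is the complex that represses cell cycle genes in resting cells), 0 were called higher and 0 lower, with a median of 0.035. Of 55 further replication genes, 0 were called in either direction (median 0.041), and of 24 mitosis genes, 0 (median 0.056). Of all tested genes 0.0197% were called. None of the genes of these lists had an unadjusted p under 0.05 in limma, against 1.52% of all tested genes. Without DMSO replicate 1 there was 1, LIG1, the DNA ligase gene of replication, named here after its value was seen (0.48 ± 0.11, limma unadjusted p = 0.00289, adjusted p = 1). In that fit 1.58% of all tested genes had an unadjusted p under 0.05. With all libraries LIG1 was at 0.18 ± 0.25. Its value in DMSO replicate 1 was 73.22 CPM, above the treated values of 59.08 to 59.89 CPM. With all libraries, the lowest p in each list belonged to E2F5, RFC2 and AURKA.

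RFC2, a clamp loader subunit like RFC4, came closest. It was at 21.31, 25.58 and 26.22 CPM with DMSO and 29.33, 31.81 and 30.45 CPM with blebbistatin, with every treated library above every control. Its log2 fold change was 0.29 ± 0.12 (limma unadjusted p = 0.0501, adjusted p = 0.991). FBXO5, which encodes an inhibitor of the anaphase-promoting complex (0.27 ± 0.20), and TRAIP, a ubiquitin ligase gene (0.27 ± 0.19), had overlapping groups. E2F5, a repressive E2F, was at 4.447, 5.399 and 5.378 CPM with DMSO and 5.853, 7.494 and 5.854 CPM with blebbistatin (0.29 ± 0.19), also without overlap. E2F8 (0.18 ± 0.17), the E2F partner gene TFDP1 (0.18 ± 0.15) and MYBL2 (-0.13 ± 0.12) completed the lowest p values of that list. Without DMSO replicate 1 the log2 fold changes were 0.116 for FBXO5, 0.207 for TRAIP, 0.24 for E2F5, 0.113 for E2F8, 0.036 for TFDP1, -0.073 for MYBL2 and 0.241 for RFC2.

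In the mitosis list, DMSO replicate 1 again stood out. MKI67, the proliferation marker, was at 439.3 CPM in DMSO replicate 1, 234.2 and 166.1 CPM in the other controls and 175.2, 241.8 and 202.7 CPM after treatment (-0.37 ± 0.37). Without that library its log2 fold change was 0.059 ± 0.19. The mitotic kinase genes AURKA (0.24 ± 0.16), AURKB (0.20 ± 0.16) and TTK (-0.25 ± 0.22) had overlapping groups, and without that library were at 0.122, 0.105 and -0.099. CCNB1, the cyclin of mitotic entry, was the 1 mitosis gene whose scaled groups did not overlap (0.11 ± 0.12, named after its value was seen). As deposited, its groups overlapped. The 22 further E2F, RB and DREAM genes, 55 further replication genes and 24 mitosis genes each held 1 gene wholly higher and 0 wholly lower. Over all tested genes 3.24% lay wholly higher and 2.89% wholly lower. E2F-type matches were found in 20 of 45 promoter windows of the further replication genes (44.4%), 1 of 15 of the further E2F, RB and DREAM genes and 2 of 22 of the mitosis genes, beside the 20 of 30 of the G1 and S phase genes. CCAAT was found in 20 of 45, 6 of 15 and 18 of 22, beside 19 of 30.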

How the data were processed

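The authors deposited CPM values for 28909 genes in 6 RNA libraries; each column sums to the same total, although the table's name speaks of counts. Per the submitters' processing notes, build rn6, the aligner HISAT2 2.1.0, StringTie 1.3.4 and edgeR 3.20.9 were among the tools of the series; how reads were counted is not given in the sources used here, so overlapping genes are uncertain. In each library 99.08 to 99.17% of values above 0 were whole multiples (within 0.02) of a step taken as 1 read; reads could not be recovered for every gene, so no count model was fitted.

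Values were divided by an unweighted TMM factor (0.928 to 1.03; trims of 0.3 and 0.05) and tested as log2(CPM + 0.1) with limma 3.58.1 in R 4.3.3 (trend and robust settings, two-sided, no block), with Benjamini-Hochberg adjustment over the 15204 genes at 0.162 CPM or more in at least 3 libraries. Fold changes are on that scale. Means ± SD are of scaled CPM; single values are as deposited unless called scaled. Levels were not compared between genes, since CPM does not account for length. Members and lists were chosen with earlier results of these data known. Named genes were all members and the 4 with the lowest p in each further list, of which 1 is not reported here. The fit was also run on simulated data whose spread came from the blebbistatin libraries alone. No simulated library was made to stand apart, so that run does not cover one like DMSO replicate 1. A planned description of D cyclin proteins was not made.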

Additional observations from a re-analysis of the deposited data

How the results depend on the processing

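No alternative called a member or a gene of the 3 further lists. The count over all genes was 3 in the main fit and 13 with gene-by-gene library weights. It was 2 with no filter, with 0.5 or 1 CPM added in place of 0.1, and with the replicate block. With any single library left out it was 3 to 6 (6 without DMSO replicate 1 or DMSO replicate 3), and 1 to 2 members at an unadjusted p under 0.05 in 3 of these 6 fits: ORC1 (0.52) without DMSO replicate 2, CDC45 (0.53) and E2F3 (-0.60) without DMSO replicate 3, and CDT1 (0.40) without blebbistatin replicate 1, with limma adjusted p of 0.596 to 1. In these fits 2.6%, 5.1% and 2.6% of members and 1.4%, 6.1% and 1.3% of all genes were under that level. The members with separated groups, 1 with all libraries, numbered 2 to 8, where fewer libraries separate more often by construction (12.1 to 22.6% of all genes). With library size alone that member was MCM4 in place of RRM2. The edgeR test on whole reads was not run, because reads were not recovered.

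For the named genes, 9 values changed sign and 501 stayed on the same side under the other settings, and 37 changed and 269 stayed with a library left out; the cause was not tested. Log2 fold changes turned for MCM2 (-0.0022) with relative log expression scaling, for MCM5 (0.0124), MCM7 (0.01) and RFC4 (0.0115) with library size alone, and for CDC25A (0.0228), MCM5 (0.128), MCM6 (0.0292), MCM7 (0.0294) and RFC4 (0.0954) with library weights. Over the left-out libraries the values that turned ran from -0.428 to 0.0621 for CCND2, -0.0328 to 0.36 for CDK2, -0.599 to 0.093 for CDK6, -0.236 to 0.0363 for CDC25A, -0.122 to 0.15 for RB1, -0.091 to 0.152 for RBL1, -0.00932 to 0.338 for PCNA, -0.0734 to 0.056 for MCM2, -0.0518 to 0.0686 for MCM3, -0.111 to 0.0994 for MCM5, -0.113 to 0.0369 for MCM6, -0.0744 to 0.0143 for MCM7, -0.0464 to 0.125 for MCM10, -0.0639 to 0.126 for CDC6, -0.103 to 0.0441 for GINS1, -0.0248 to 0.0892 for GINS2, -0.0213 to 0.0397 for TYMS, -0.0394 to 0.144 for SLBP, -0.177 to 0.0066 for CHAF1B, -0.0924 to 0.092 for RFC4 and -0.71 to 0.0592 for MKI67.

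With the replicate block 2 genes were called in all and 0 members. For replicates 1, 2 and 3, the correlation across genes between the control and the treated deviation was -0.289, 0.054 and -0.092, and DMSO replicate 3 correlated best with blebbistatin replicate 1 (0.376), so the numbers were not taken as pairs.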
